A study of Panonychus citri with 16 samples.

Results

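The 200 contigs whose relative abundance varied least between libraries were taken from an RNA-seq survey of the citrus red mite, Panonychus citri. They were chosen among 17682 assembled contigs by their readings in 15 of the 16 libraries. A contig was eligible if it reached at least 10 TPM (a share of all transcripts corrected for contig length) in all 15 libraries, which 5650 contigs did. The 200 contigs with the highest median TPM of the whole table were set aside, and this left 5450 eligible contigs. The standard deviation (SD) of log2 TPM over the 15 libraries was computed for each, and the 200 with the lowest SD are described here as the constant contigs. The 16th library, replicate 2 of the Rasht population, was not used in the choice and serves to see how the levels hold outside it. Each identifier joins a population name and a running number. Of the 17682 identifiers, 0 matched the RefSeq gene table of the species, so no contig is given a gene name, a function or a sequence.

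Whole adult females of 4 populations were compared, each with 4 biological replicates and each replicate an RNA extraction from 100 to 130 mites. Lahijan is labelled moderately resistant to fenpyroximate, Ramsar and Sari highly resistant and Rasht susceptible. Fenpyroximate is a METI-I acaricide, one of the compounds that stop mitochondrial electron transport at complex I. All mites were reared on lemon leaves at 25 °C, and the labels name no acaricide exposure at sampling. Each resistance level is represented by 1 population (a pair of populations for the high level), so level and population cannot be told apart. The material is the whole animal, so fewer cells of a type and less RNA per cell cannot be told apart either.

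Transcripts held at a steady level in an animal often come from housekeeping genes, those for protein synthesis, protein turnover, energy metabolism and the cytoskeleton that most cells use. Such transcripts are the usual reference genes of quantitative PCR, where the target is divided by a transcript taken to be unchanged. In spider mites, as in other arthropods, reference genes are checked for each comparison, because a transcript that is steady between some strains or stages can vary between others. TPM is a share: when a few very abundant transcripts take more of a library, the TPM of the remaining transcripts is lower without any change in their number per cell.

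The libraries used for the choice held 9154455 to 15209720 estimated counts, rounded to whole numbers per contig. Rasht replicate 2 held 16595542 and stood apart from them. It had no counts for 29.9% of all contigs, against 10.1% to 15.8% in the other 15 libraries. Its 200 most abundant contigs took 65.6% of its TPM, against 48.3% to 58.5%. Among the 15, this share also differed by population, at 53.9% to 58.5% in Lahijan, 48.3% to 50.9% in Ramsar, 48.9% to 53.0% in Sari and 53.7% to 54.9% in Rasht. These shares bear on every TPM value below, and their part in the results was not tested.

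The constant contigs had SDs of 0.056 to 0.114 on the log2 TPM scale, with a median of 0.102, against a median of 0.224 over all eligible contigs. The highest of the 15 libraries stood 1.16 to 1.37 times above the lowest, with a median of 1.28, and the same ratio had a median of 1.70 over the eligible contigs. All 200 stayed within 1.25-fold of their own mean in each of the 15 libraries. These values chose the contigs and are given as a description. Their median levels ran from 11.6 to 737 TPM, with a median of 66.2 TPM, against 40.2 TPM over the eligible contigs. In all, 74 of the 200 had a median of at least 100 TPM, or 37% of them, against 19.2% of the eligible contigs. At the low end 6 of them, or 3%, lay under 20 TPM, against 15.7% of the eligible contigs.

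Counting error sets a floor to the spread. The SD that counting alone would give was computed from the estimated counts of each contig, and the observed SD of the constant contigs was 0.991 to 8.07 times that value, with a median of 2.26. The median over the eligible contigs was 4.13. The SD of 21 constant contigs (10.5%) was at most 1.5 times the counting SD, against 1.67% of eligible contigs. Among the 4 least abundant constant contigs, the SD was 1.02 times the counting SD in Rasht_contig_4258, 1.55 times in Rasht_contig_2625, 1.42 times in Rasht_contig_6161 and 1.66 times in Rasht_contig_2405. Among the 4 most abundant it was 6.66 times in Rasht_contig_315, 2.95 times in Ramsar_contig_2682, 5.86 times in Rasht_contig_1936 and 8.07 times in Sari_contig_2468. The scarce contigs all lay nearer to the floor than the abundant ones, over mean estimated counts of 229 in Rasht_contig_4258 and 13694 in Sari_contig_2468. The choice held every SD at or below 0.114, so this order follows largely from the counts. The larger share near the floor than among the eligible contigs likewise follows from choosing low SDs, and both are given as a description.

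**Figure D1:**
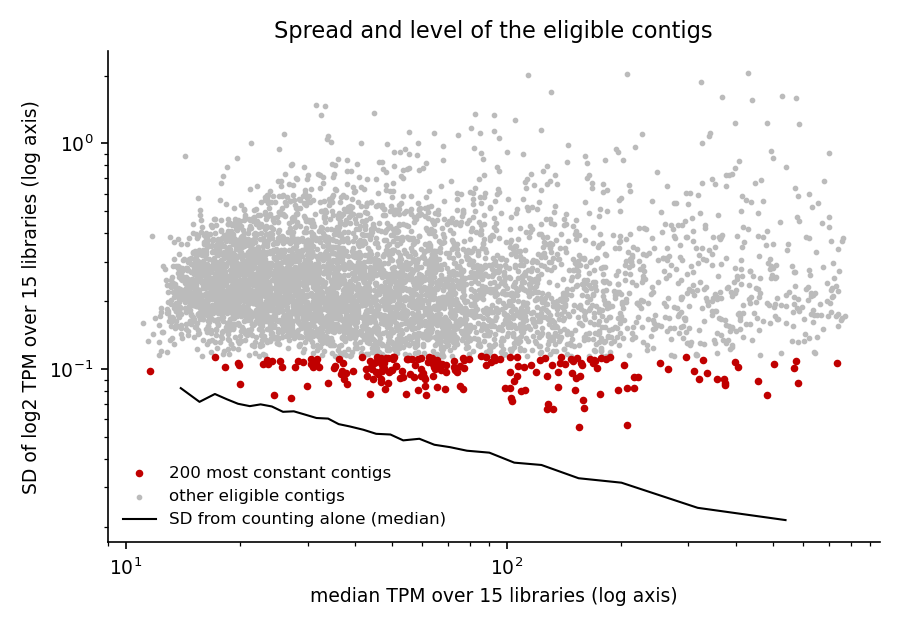
The SD of log2 TPM is plotted against the median TPM over 15 libraries, both on log axes, for the 200 constant contigs (red) and the other 5250 eligible contigs (grey). The black line is the median SD that counting error alone would give; the red points fill the band under the limit of 0.114 and come nearest to the line at low levels.

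The most constant contig was Rasht_contig_2619, with an SD of 0.056. Its level was 151, 147, 156 and 156 TPM in Lahijan, 154, 159, 153 and 175 TPM in Ramsar, 159.7, 155, 157 and 155 TPM in Sari, and 157, 152 and 149.7 TPM in Rasht replicates 1, 3 and 4. The libraries of all 4 populations overlapped, and Ramsar replicate 4 was the highest. Rasht_contig_2655 followed, with an SD of 0.057 and levels between 189 TPM in Rasht replicate 3 and 223 TPM in Ramsar replicate 1. Rasht_contig_1110, at an SD of 0.066, lay between 121 TPM in Rasht replicate 1 and 141 TPM in Ramsar replicate 3. The remaining 3 of the 6 most constant contigs were Rasht_contig_609 (122 to 142 TPM), Rasht_contig_511 (147 to 173 TPM) and Lahi_contig_416 (115 to 136 TPM). All 6 lay between 127 and 207 TPM by their medians, above the median of the constant contigs as a set. Ramsar had the highest mean log2 TPM of the 4 populations in each of the 6, and on TMM-scaled CPM (described below) its mean was lower than that of Lahijan in all 6.

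At the limit the values ran on without a step. The last 4 contigs inside it were Lahi_contig_931, Rasht_contig_825, Rasht_contig_3993 and Rasht_contig_2600, and the first 4 outside were Rasht_contig_210, Rasht_contig_749, Rasht_contig_2899 and Rasht_contig_1650. All 8 had an SD of 0.114. Rasht_contig_2600, the last inside, spanned 75.2 to 102.6 TPM, and Rasht_contig_210, the first outside, spanned 57.7 to 77.9 TPM. Membership near the limit thus turned on differences below the last digit given here.

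The abundant end of the list held Rasht_contig_315 at a median of 737 TPM, Ramsar_contig_2682 at 580.2 TPM, Rasht_contig_1936 at 575 TPM and Sari_contig_2468 at 567 TPM. Rasht_contig_315 averaged 780 ± 17.8 TPM in Lahijan, 696 ± 42.6 TPM in Ramsar and 731 ± 57.5 TPM in Sari (SD, n = 4 each), and 737 ± 73.9 TPM in Rasht (n = 3). Sari_contig_2468 averaged 557 ± 40.8 TPM in Lahijan, 532 ± 26.5 TPM in Ramsar, 604 ± 14.6 TPM in Sari and 592 ± 27.5 TPM in Rasht. Its counts were fractional in most libraries, which is how reads shared with another contig appear in the table, so its value is uncertain to that extent. The scarce end held Rasht_contig_4258 (10.3 to 12.8 TPM), Rasht_contig_2625 (15.8 to 21.04 TPM), Rasht_contig_6161 (16.6 to 21.8 TPM) and Rasht_contig_2405 (17.5 to 21.5 TPM). Rasht_contig_6161 had fractional counts in every library.

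Summed over the 200, the constant contigs made up 2.17% to 2.35% of the TPM of each of the 15 libraries. The sum averaged 22446 ± 715 TPM in Lahijan, 23279 ± 272 TPM in Ramsar and 22523 ± 541 TPM in Sari (SD, n = 4 each), and 22946 ± 392 TPM in Rasht (n = 3). Ramsar had the highest mean and Lahijan the lowest, and their libraries overlapped, at 22888 to 23493 TPM in Ramsar and 21702 to 23090 TPM in Lahijan. The constant contigs still moved together to a small degree. Their median deviation from their own 15-library means was lowest in Sari replicate 3, at -0.084 on the log2 scale, with 47 of the 200 above their mean. It was highest in Ramsar replicate 1, at 0.084, with 153 of 200 above. In Lahijan replicate 2 only 25 of the 200 were above their mean. The median over all eligible contigs moved further, between -0.21 in Lahijan replicate 1 and 0.22 in Ramsar replicate 1.

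**Figure D2:**
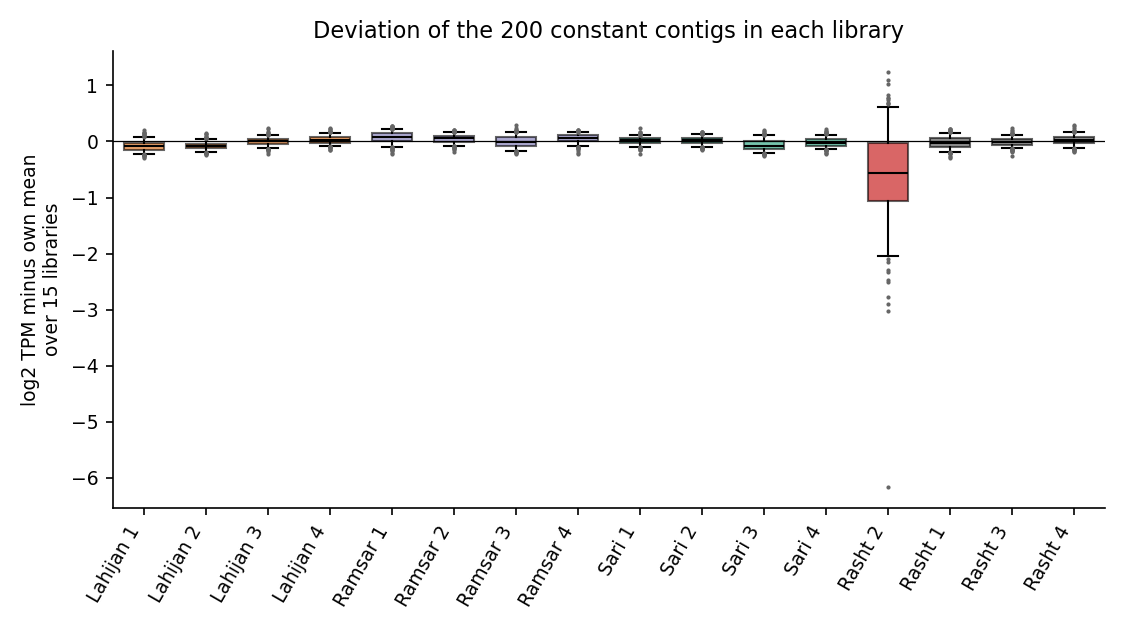
Each box shows log2 TPM minus the contig's own mean over 15 libraries for the 200 constant contigs in 1 library (box, quartiles; line, median; whiskers, 5th to 95th percentile; points, contigs beyond). The 15 libraries used for the choice have medians between -0.084 and 0.084, and Rasht 2 (red), which was not used, has a median of -0.57 and spreads from -6.16 to 1.25.

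Between populations the differences were small, as the choice requires. The largest fold between any pair of population means was 1.01 to 1.196 for the constant contigs, with a median of 1.10, against a median of 1.30 over the eligible contigs. The SD between the 4 population means had a median of 0.062 and the SD within populations a median of 0.088. Between-population spread exceeded within-population spread in 40 of the 200 (20%), against 52.4% of the eligible contigs. The between-population SD is a spread of means over libraries and the within-population SD a spread of single libraries. These are unlike measures, so a lower value between populations does not show that populations do not differ. Rasht_contig_4570 had the largest difference of all. It stood at 49.2, 50.02, 49.4 and 49.7 TPM in Ramsar and at 39.9, 42.1, 41.2 and 42.6 TPM in Lahijan, and the libraries did not overlap. Sari held 48.9, 47.1, 42.7 and 46.9 TPM of it and Rasht 44.5, 46.9 and 42.6 TPM. The Ramsar level was 1.196 times that of Lahijan, a log2 difference of 0.26. Its counts were fractional in all 15 libraries, so reads shared with another contig enter this value.

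The next 3 differed in like measure. Rasht_contig_4525 stood at 91.3, 101, 96.7 and 94.4 TPM in Ramsar, against 77.8, 79.9, 78.7 and 88.4 TPM in Lahijan, a ratio of 1.18. Ramsar was above Lahijan in every library here too. Rasht_contig_3667 ran the other way between Sari and Rasht, with 35.2, 34.8, 33.4 and 32.3 TPM in Sari and 38.0, 40.1 and 42.2 TPM in Rasht, a log2 difference of -0.24. Rasht_contig_1936 averaged 609 ± 32.02 TPM in Ramsar and 519 ± 30.9 TPM in Lahijan (SD, n = 4 each), with the libraries again apart. On TMM-scaled CPM the Ramsar mean was the lower of the pair in Rasht_contig_4570 (201 ± 11.2 CPM in Ramsar, 208 ± 9.50 CPM in Lahijan), and likewise in Rasht_contig_4525 and Rasht_contig_1936, while Rasht_contig_3667 kept its direction, at 29.1 ± 1.32 CPM in Sari and 40.3 ± 3.14 CPM in Rasht. These contrasts were part of what chose the contigs, so no test is attached to them.

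Counts of contigs whose libraries did not overlap between a pair of populations are given beside the share over all eligible contigs, and nothing is read from them. The counts are out of 200, and the values in brackets for each direction are shares of the eligible contigs. In Lahijan against Rasht 9 of the 200 did not overlap (4.5%, background 10.9%), 2 higher in Lahijan (3.8%) and 7 lower (7.1%). In Ramsar against Rasht there were 24 (12%, background 31.8%), 21 higher in Ramsar (29.9%) and 3 lower (1.91%). In Sari against Rasht there were 33 (16.5%, background 32.5%), 17 higher in Sari (26.9%) and 16 lower (5.52%). The Rasht libraries are the same in these 3 comparisons, and the populations of the next 3 appear above as well. Ramsar against Lahijan gave 23 (11.5%, background 40.5%), 22 higher in Ramsar (38.2%) and 1 lower (2.29%). Sari against Lahijan gave 21 (10.5%, background 38.3%), 15 higher in Sari (33.8%) and 6 lower (4.42%). Ramsar against Sari gave 17 (8.5%, background 14.1%), 15 higher in Ramsar (10.3%) and 2 lower (3.8%). In 120 of the 200 contigs (60%) no pair of populations was free of overlap, against 35.1% of the eligible contigs. None of the 200 had 5 or 6 of the 6 pairs free of overlap, and few of the eligible contigs did (3.17% and 0.165%).

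Constancy on the TPM scale was not constancy on other scales. TMM factors, which equalise the bulk of contigs between libraries, were 0.933 to 1.03 in Lahijan, 1.08 to 1.17 in Ramsar, 1.04 to 1.10 in Sari and 0.942 to 1.01 in Rasht replicates 1, 3 and 4. On TMM-scaled CPM, each count as a share of the scaled library total, the SDs of the same 200 contigs ranged from 0.072 to 0.238, with a median of 0.152, beside a median of 0.190 over eligible contigs. When the 200 lowest SDs were taken on that scale, 5 of the 200 contigs were shared with the TPM list. They were Lahi_contig_2239, Rasht_contig_1048, Rasht_contig_4570, Rasht_contig_836 and Sari_contig_4699. With TPM divided by each library's median ratio over the eligible contigs, 22 were shared. The lists from those other scales shared 116 of 200 with each other.

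The scale also turned the direction of most differences that involve Ramsar or Sari with Lahijan or Rasht. On the TPM scale the constant contigs had a median log2 difference of 0.084 between Ramsar and Lahijan, and on TMM-scaled CPM of -0.21, with all 200 means lower in Ramsar. For Sari against Lahijan the median was 0.016 on TPM and -0.25 on TMM-scaled CPM, again with all 200 lower in Sari. Ramsar against Rasht gave 0.050 on TPM and -0.21 on TMM-scaled CPM. Sari against Rasht was negative on both, at -0.017 and -0.24. The medians over all eligible contigs also changed sign, at 0.27 on TPM and -0.033 on TMM-scaled CPM for Ramsar against Lahijan, and at 0.19 and -0.079 for Sari against Lahijan. Without overlap on TMM-scaled CPM were 165 of the 200 for Sari against Lahijan (background 40.5%), 147 for Sari against Rasht (39.2%), 130 for Ramsar against Lahijan (27%) and 116 for Ramsar against Rasht (26.5%). Lahijan against Rasht gave 3 of the 200 (background 13.4%) and Ramsar against Sari 24 (background 14.2%). With the median ratio the counts out of 200, each with its background in brackets, were 121 for Sari against Lahijan (38.1%), 79 for Sari against Rasht (33.9%) and 114 for Ramsar against Lahijan (26.9%). They were 86 for Ramsar against Rasht (24.5%), 8 for Lahijan against Rasht (13%) and 14 for Ramsar against Sari (13.7%). The contigs were chosen to be flat in TPM, so their common direction on another scale is no independent result. Their share of the counts was 2.82% to 2.94% in Ramsar, 2.65% to 2.78% in Sari, 2.87% to 3.01% in Lahijan and 2.85% to 3.01% in Rasht replicates 1, 3 and 4. The parts of the TMM factors and of the change from TPM to CPM in these differences were not tested. The median differences of the other pairs were small on each scale and changed sign with the median ratio. They were -0.040 on TPM, -0.008 on TMM-scaled CPM and 0.022 with the median ratio for Lahijan against Rasht, and 0.067, 0.033 and -0.014 for Ramsar against Sari.

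**Figure D3:**
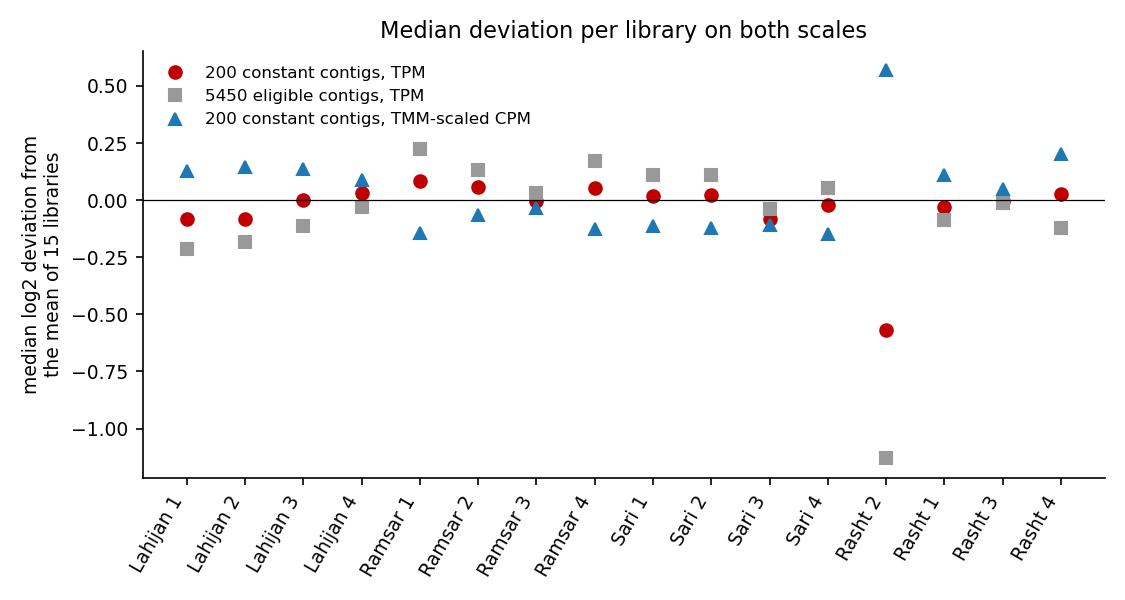
The median log2 deviation from the 15-library mean is shown per library for the 200 constant contigs on TPM (red circles), for the 5450 eligible contigs on TPM (grey squares) and for the 200 constant contigs on TMM-scaled CPM (blue triangles). On TPM the constant contigs stay within 0.084 of 0 in 15 libraries; on TMM-scaled CPM they lie above 0 in Lahijan and Rasht and below 0 in Ramsar and Sari, and in Rasht 2 the scales differ in sign.

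The choice was repeated with each of the 15 libraries left out in turn, and the chosen contigs were read in that library against the mean log2 TPM of the other libraries of its population. Rasht replicate 2 was not part of any reference. The reference was thus 2 libraries for Rasht replicates 1, 3 and 4, and 3 libraries for each of the others. Between 141 (without Ramsar replicate 1) and 188 (without Sari replicate 2) of the 200 contigs stayed on the list. In the library left out, 199 to 200 of 200 lay within 1.5-fold of the other libraries of their population, where 91.9% to 99.6% of the eligible contigs did. Within the narrower limit of 1.25-fold lay 90% to 100% of the chosen contigs, against 72.9% to 96.2% of the eligible ones. The lowest of these shares belonged to Ramsar replicate 1 among the chosen contigs and to Rasht replicate 1 among the eligible ones. The interquartile range of the deviations was 0.088 to 0.23 on the log2 scale for the chosen contigs and 0.15 to 0.37 for the eligible ones. In each of the 15 libraries the chosen contigs had the narrower interquartile range.

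Whole populations were left out in the same way. Contigs chosen on the other 3 populations lay within 1.25-fold of the mean of those populations for 194 of 200 in Lahijan, 195 in Ramsar, 196 in Sari and 199 in Rasht (replicates 1, 3 and 4). The eligible contigs did so for 72.9% in Lahijan, 73.3% in Ramsar, 80.8% in Sari and 80.6% in Rasht. The median log2 difference of the chosen contigs from the other populations was -0.093 in Lahijan, 0.11 in Ramsar, -0.052 in Sari and -0.008 in Rasht. Leaving out Ramsar changed the list most, with 103 of the 200 contigs kept, and leaving out Rasht least, with 157 kept. The choice without Rasht still used 12 libraries and each of the others 11, so these numbers are not on equal terms. The farthest departure was that of Lahi_contig_271, named after the values were seen. It had an SD of 0.080 over the 11 libraries of Ramsar, Sari and Rasht, and in Lahijan it stood 1.90 times above the mean of those populations. Among these 3 populations alone it would have counted as constant.

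Rasht replicate 2 was read against the other 3 Rasht libraries, as a description with no replicate check (an exact permutation test of 1 library against 3 cannot go below p = 0.25). The levels held there for less than the full list. Of the 200 constant contigs, 92 lay within 1.5-fold of the mean of Rasht replicates 1, 3 and 4, or 46%, where 27.9% of the eligible contigs did. More than 2-fold lower were 57 (28.5%, background 51.2%), and more than 2-fold higher were 2 (1%, background 3.1%). None was listed at 0 in this library, and only 0.88% of the eligible contigs were (48 of 5450), so little is read from this. A TPM of at least 10 was held by 193 of 200 (96.5%), against 67.5% of the eligible contigs. The constant contigs also started further above this line, with a median level of 66.2 TPM against 40.2 TPM, and the part of this was not tested. The median of the constant contigs was 0.676 times their level in the other Rasht libraries, a log2 difference of -0.57, and that of the eligible contigs was 0.486 times, or -1.04.

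Beside the 15 libraries, 29 of the 200 (14.5%) fell inside the range seen there, against 18.6% of the eligible contigs. Below it lay 137 (68.5%, background 72.3%) and above it 34 (17%, background 9.06%). The ranges of the constant contigs are narrow by the choice. The interquartile range of the deviations was 1.02 on the log2 scale, against 1.61 over the eligible contigs and 0.088 to 0.23 in the other libraries when these were left out. The summed level was 19047 TPM in Rasht replicate 2, against 22721, 22718 and 23399 TPM in Rasht replicates 1, 3 and 4. The direction of the shift depends on the scale. Once the eligible median is taken off, the constant contigs stood 0.47 higher on the log2 scale in Rasht replicate 2, with 148 of 200 above that median, and on TMM-scaled CPM they stood 0.46 higher. The number within 1.5-fold depended on it less, at 88 of 200 with the eligible median taken off (eligible contigs 37.5%) and 91 on TMM-scaled CPM (37.2%).

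**Figure D4:**
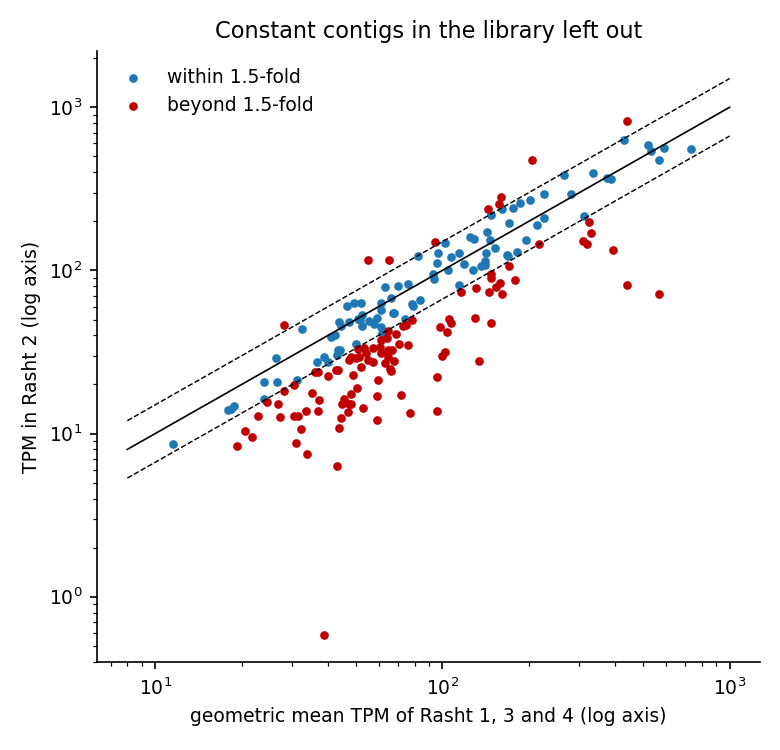
TPM in Rasht 2 is plotted against the geometric mean TPM of Rasht 1, 3 and 4 for the 200 constant contigs, on log axes. The solid line marks equal levels and the dashed lines 1.5-fold; 92 contigs (blue) lie between the dashed lines, and most of the others lie below them.

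The largest departure was in Rasht_contig_3403. It had 0.586 TPM in Rasht replicate 2, from 18.5 estimated counts, against 36.4, 41.3 and 38.2 TPM in Rasht replicates 1, 3 and 4. The other 12 libraries held between 39.2 TPM in Lahijan replicate 3 and 46.5 TPM in Sari replicate 1, so a single library of 16 was without most of this transcript. The log2 difference was -6.04. Ramsar_contig_2682, among the most abundant of the list, stood at 72.1 TPM in Rasht replicate 2, against 546, 610.2 and 547 TPM in Rasht replicates 1, 3 and 4. Sari_contig_1565, with fractional counts in most libraries, stood at 13.7 TPM, against 95.5, 97.5 and 95.4 TPM. Rasht_contig_451 stood at 6.36 TPM, against 42.4, 42.3 and 43.9 TPM. In each of these 4 the value of Rasht replicate 2 lay far under the lowest of the other 15 libraries, and on TMM-scaled CPM they remained lower than in the other Rasht libraries, by log2 differences of -4.99, -1.91, -1.79 and -1.75 in the order named.

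In the other direction, Rasht_contig_2426 had 478 TPM in Rasht replicate 2, against 210.3, 185 and 221 TPM in Rasht replicates 1, 3 and 4. This was 2.34 times their mean, from 11885 estimated counts. Sari_contig_1760 had 116 TPM, against 53.1, 51.9 and 60.0 TPM. Its counts were fractional in all 15 libraries. Lahi_contig_65 had 819.6 TPM, against 445, 447 and 425 TPM, and Rasht_contig_4675 had 116 TPM, against 59.0, 67.3 and 69.5 TPM. The counts of Lahi_contig_65 were fractional in most libraries. On TMM-scaled CPM these 4 stood higher still, by log2 differences of 2.24, 2.09, 1.95 and 1.89 in the order named. The 6 most constant contigs were themselves split. Rasht_contig_2655 and Rasht_contig_1110 were higher in Rasht replicate 2, at 272 and 155 TPM, against 189 to 217 TPM and 121 to 138 TPM in the other Rasht libraries. Rasht_contig_2619, Rasht_contig_609, Rasht_contig_511 and Lahi_contig_416 were lower there, at 78.9, 77.8, 83.9 and 51.0 TPM, against 149.7 to 157, 122 to 138, 152 to 165 and 128 to 130.3 TPM. On TMM-scaled CPM the direction of 3 of these 4 turned, with log2 differences of 0.053 for Rasht_contig_2619, 0.27 for Rasht_contig_609 and 0.13 for Rasht_contig_511, and Lahi_contig_416 stayed lower at -0.33.

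**Figure D5:**
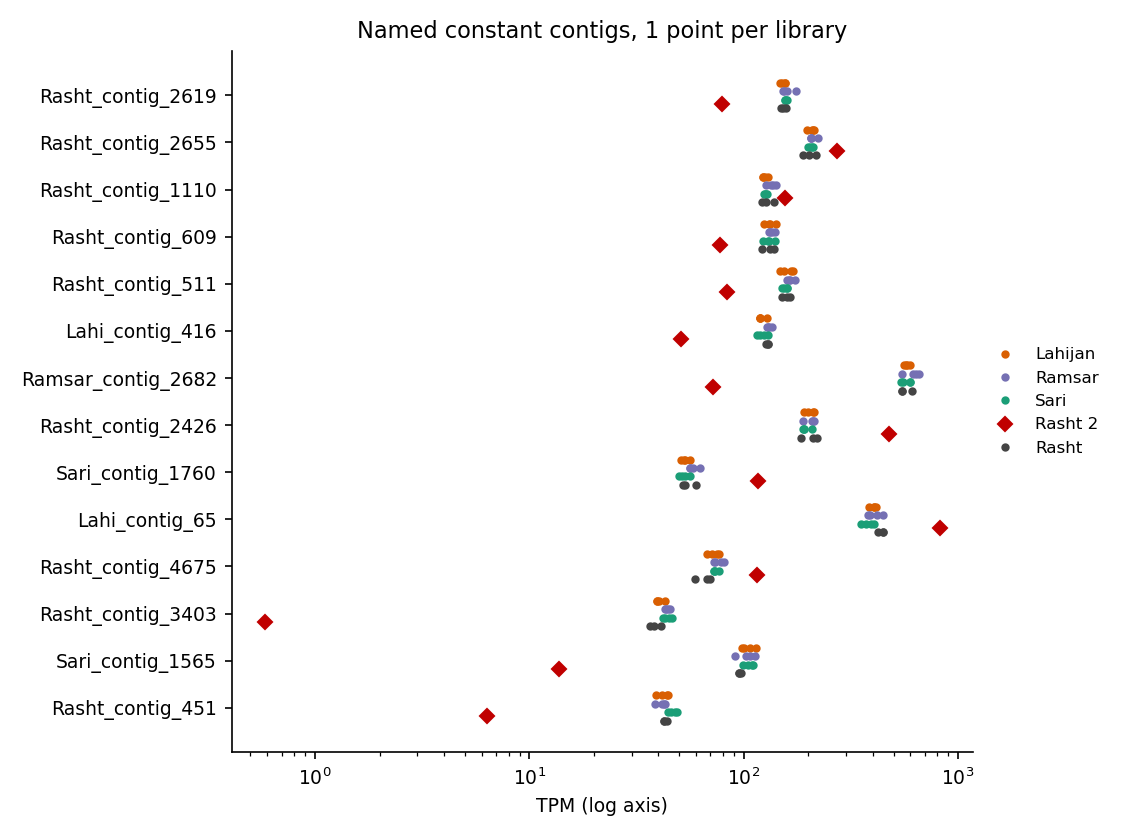
TPM (log axis) of 14 named constant contigs, with 1 point per library: Lahijan (orange), Ramsar (purple), Sari (green), Rasht 2 (red diamond) and Rasht 1, 3 and 4 (black). The 6 most constant contigs are at the top, and those farthest from the other Rasht libraries in Rasht 2 are below; the points of 15 libraries lie close together in each row, and the red diamond lies apart, farthest in Rasht_contig_3403 with a log2 difference of -6.04.

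A lower SD within the list did not go with a closer level in Rasht replicate 2. The 50 contigs with the lowest SDs had 19 within 1.5-fold and a median log2 deviation of -0.81. The following groups of 50, in order of SD, had 23, 26 and 24 within 1.5-fold and medians of -0.57, -0.42 and -0.59. The Spearman correlation of SD with the signed deviation was 0.069 in the list and -0.11 over all eligible contigs. It describes the direction of the deviation and does not measure closeness. By level, the 50 most abundant contigs had 29 within 1.5-fold and a median deviation of -0.22, and the 50 least abundant had 20 and -0.64. By length, taken as the ratio of estimated counts to TPM relative to the eligible median, the 50 shortest contigs had 31 within 1.5-fold and a median of -0.11. The other groups of 50 by length had 20, 20 and 21 and medians of -0.68, -0.69 and -0.69. The shortest contigs were also the most abundant, with a median level of 150.4 TPM against 50.9 to 63.9 TPM in the other groups, so length and level cannot be told apart here. Over all eligible contigs the Spearman correlation of the deviation with level was 0.30, against 0.25 in the list. With length it was -0.33, against -0.28, so for the signed deviation neither pattern is particular to the list.

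Properties outside the rule differed little from those of the eligible contigs. Identifiers named for Rasht made up 148 of the 200 (74%), those for Lahijan 26 (13%), for Sari 17 (8.5%) and for Ramsar 9 (4.5%), where the eligible contigs held 71.3%, 13.5%, 8.24% and 6.95%. Over all contigs 42.5% of identifiers carry the name of Rasht, so the minimum level had already favoured these. Contigs named for Lahijan lay within 1.5-fold in Rasht replicate 2 for 6 of 26, those named for Rasht for 72 of 148, those for Sari for 9 of 17 and those for Ramsar for 5 of 9. The share among eligible contigs of the same name is not given here, so nothing is read from these counts. The relative length of the constant contigs had a median of 0.924 and quartiles of 0.660 and 1.32, inside the quartiles of 0.622 and 1.52 of the eligible contigs. Counts were whole in all 15 libraries, within 0.001, for 136 of 200 (68%), against 59.6% of the eligible contigs, and fractional in all 15 for 42 (21%), against 28.6%. In Rasht replicate 2, 60 of the 136 contigs with whole counts and 32 of the 64 with some fractional counts lay within 1.5-fold. For this split too the share among like eligible contigs is not given, and nothing is read from it.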

How the data were processed

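Whole adult females of 4 populations were sequenced in 16 libraries, per the labels with a stranded kit and paired reads of 125 bases. The deposited table gives estimated counts and TPM per contig, as its header names them. The submitters' processing notes list kallisto, limma 3.43.9 and edgeR 3.20.9, next to sleuth 0.29.0, FastQC 0.11.4 and R 3.4.4, without saying what each did. For the contig set and all settings, the origin is not given in the sources used here.

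SDs and differences were computed on log2 of the deposited TPM, with no pseudocount, in Python 3.11.15 with pandas 2.3.3. TMM factors of the rounded estimated counts came from edgeR 4.0.16 (R 4.3.3), over 16 libraries. The contigs were chosen with earlier results of these data known. The rule used 15 libraries, so no comparison among them was tested, and the closing check for single libraries that stand apart is a description. Named were the 6 lowest SDs, 4 contigs on each side of the limit, and the 4 extremes of level, of deviation in Rasht replicate 2 and of population difference. The counting SD assumes Poisson counting of the estimated counts and covers counting error only. Overlap was judged on TPM, and also on TMM-scaled CPM and on TPM divided by the median ratio. The choice and the overlap count were run on simulated data as a check of the code. The planted constant contigs had high counts and no spread beyond counting error. The planted population differences were far larger than any among the constant contigs. The simulation therefore does not show how either performs at the spreads and differences described here.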

Additional observations from a re-analysis of the deposited data

Results flagged for a closer look

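Within each population of 4 libraries, the sum of the constant contigs, their median deviation and each named contig were checked for a library whose gap to the nearest other, divided by the group's range, exceeded Dixon's 95% critical value for 4 samples. Of 136 groups checked, 24 passed, 18 of them through Rasht replicate 2. In groups not chosen by their values chance passes this in about 1 of 20, and that rate does not apply here. The contigs were chosen for a small spread in the other 15 libraries, and 8 of the named ones for their deviation in Rasht replicate 2, so the values below are a description.

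Rasht replicate 2 stood apart in the summed level, at 19047 TPM, and in the median log2 deviation, at -0.57. Among the most constant contigs it stood apart in Rasht_contig_2619 at 78.9 TPM, Rasht_contig_511 at 83.9 TPM and Lahi_contig_416 at 51.0 TPM. Near the limit it did so in Rasht_contig_3993 at 42.0 TPM, Rasht_contig_210 at 27.6 TPM, Rasht_contig_749 at 34.7 TPM and Rasht_contig_2899 at 31.6 TPM. Among contigs farthest from the other Rasht libraries it did so low in Ramsar_contig_2682 at 72.1 TPM, Rasht_contig_3403 at 0.586 TPM, Sari_contig_1565 at 13.7 TPM and Rasht_contig_451 at 6.36 TPM, and high in Rasht_contig_2426 at 478 TPM, Sari_contig_1760 at 116 TPM and Lahi_contig_65 at 819.6 TPM. Among contigs with the largest population differences it did so in Rasht_contig_4570 at 15.1 TPM and Rasht_contig_4525 at 66.2 TPM.

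Other libraries stood apart in 6 groups, all by small amounts. Rasht_contig_2655 was at 223 TPM in Ramsar replicate 1, against 206 to 207 TPM in the other Ramsar libraries. Lahi_contig_416 was at 129 TPM in Lahijan replicate 4, against 119 to 119.7 TPM. Rasht_contig_2405 was at 21.3 TPM in Lahijan replicate 4, against 17.6 to 17.9 TPM, and at 19.2 TPM in Ramsar replicate 3, against 20.97 to 21.2 TPM. Rasht_contig_2426 was at 207 TPM in Sari replicate 2, against 189.6 to 192 TPM, and Rasht_contig_4675 was at 76.9 TPM in Sari replicate 1, against 72.5 to 73.2 TPM.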

How the results depend on the processing

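The scale decides which contigs are constant. Chosen on TPM divided by the median ratio, the list kept 22 of the 200 contigs, had a median log2 deviation of -1.19 in Rasht replicate 2 and 49 contigs within 1.5-fold there. Chosen on TMM-scaled CPM these were 5, -1.38 and 43. These are 24.5% and 21.5% of the lists on TPM, against 27.9% of the eligible contigs. Read on TMM-scaled CPM, the list chosen on that scale had a median of -0.37 and 91 within 1.5-fold (45.5%), against 37.2% of the eligible contigs. With the mean of within-population SDs 80 contigs were kept, and with the range in place of the SD 157. A choice on all 16 libraries kept 69 and, having used Rasht replicate 2, had 200 within 1.5-fold and a median of -0.039. Without Lahijan 126 were kept (median -0.75) and without Ramsar 103 (-0.68). A list of 100 (100 kept by construction) had 42 within 1.5-fold and a median of -0.64, and a list of 400 had 180 within. A TPM minimum of 1, 5 or 20 kept 198, 198 and 192, and dropping no abundant contigs kept 195. For the same 200 contigs, the median in Rasht replicate 2 reversed to 0.47 with the eligible median taken off and to 0.46 on TMM-scaled CPM, and 141 lay within 2-fold.

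Leaving out 1 of the 15 libraries kept 141 to 188 contigs, with 82 to 97 within 1.5-fold and medians of -0.63 to -0.48. Counts without overlap rise with fewer libraries by construction, to 10 to 31 for Lahijan against Rasht, 26 to 45 for Ramsar against Rasht, 39 to 56 for Sari against Rasht, 26 to 49 for Ramsar against Lahijan, 24 to 41 for Sari against Lahijan and 19 to 42 for Ramsar against Sari. Libraries whose removal raised a count by over 1.5 times were these. For Lahijan against Rasht they were Lahijan replicates 2 (16), 3 (16) and 4 (30) and Rasht replicates 1 (22), 3 (21) and 4 (31). For Ramsar against Rasht they were Ramsar replicate 3 (45) and Rasht replicate 4 (45), and for Sari against Rasht it was Rasht replicate 1 (56). For Ramsar against Lahijan they were Ramsar replicates 1 (35), 3 (42) and 4 (35) and Lahijan replicates 3 (35) and 4 (49). For Sari against Lahijan they were Sari replicate 3 (32) and Lahijan replicates 1 (33) and 4 (41). For Ramsar against Sari they were Ramsar replicates 1 (32), 3 (42) and 4 (31) and Sari replicates 1 (36) and 2 (26). On TMM-scaled CPM the counts without overlap were 3, 116, 147, 130 and 165 for the first 5 pairs, and with the median ratio 86 for Ramsar against Rasht, 79 for Sari against Rasht, 114 for Ramsar against Lahijan and 121 for Sari against Lahijan. With Rasht replicate 2 included, Lahijan against Rasht gave 3 and Sari against Rasht 21. For the counts with a library left out or Rasht replicate 2 added, the share over all eligible contigs is not given here. Whether the constant contigs changed more than the eligible ones cannot be seen from them, and nothing is read from them. No paired analysis was possible because the results come from no test; the labels number the replicates 1 to 4 in each population and state no tie between equal numbers.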
